A study of Mus musculus with 2 samples.

Results

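Metallothioneins and 3 genes that sense or move zinc were followed through the bone marrow of diabetic and control mice. The 5 genes were Mt1 and Mt2, which encode small cysteine-rich metal-binding proteins, Mtf1, which encodes the zinc-sensing transcription factor of the metal response, and the zinc transporters Slc30a1 (ZnT1) and Slc39a14 (ZIP14). They were chosen by name with earlier results on their levels in these libraries known, so their differences between the libraries are descriptions and support nothing independently. All 5 were listed in both tables, out of 27842 genes listed in at least 1 of them. The T1D library came from marrow of C57/BL6 mice with high blood sugar after streptozotocin, which destroys the beta cells that make insulin. The control library came from C57/BL6 mice given sodium citrate solution, with normal blood sugar. Both came from femurs and tibias digested with collagenase I and dispase II and freed of red blood cells by lysis. How many mice each library pooled, their age and the time since injection are not stated in the labels. With 1 library per group no test between conditions was possible, no difference has a replicate check, and no p-value is given.

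In mammals, zinc that enters the cell through importers of the ZIP family, such as Slc39a14, binds to MTF1, which then moves to the nucleus and turns on genes that carry metal response elements. Metallothionein genes and Slc30a1, whose protein pumps zinc out across the plasma membrane, are the best known of these genes, so that an excess of free zinc is bound or exported. Metallothionein genes are also induced by other metals, oxidative stress, glucocorticoids and inflammatory signals. In bone marrow, red cell precursors are known to make metallothionein.

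The promoter windows of Mt1, Mt2 and Slc30a1 are shown because these genes are the textbook targets of MTF1, and because the results turn on Mt1 and Mt2. Each window runs from 250 bases before to 50 bases after the gene start that RefSeq annotates on GRCm38.p6, all on the plus strand, and 4 of the 5 members had one. Capitals mark the core of the metal response element, searched as TGCACNC and as TGCGCNC on both strands, so that a match on the minus strand reads as GNGTGCA or GNGCGCA. The sequences, 5′ to 3′, are these.
Mt1 (chr8:94178839-94179138): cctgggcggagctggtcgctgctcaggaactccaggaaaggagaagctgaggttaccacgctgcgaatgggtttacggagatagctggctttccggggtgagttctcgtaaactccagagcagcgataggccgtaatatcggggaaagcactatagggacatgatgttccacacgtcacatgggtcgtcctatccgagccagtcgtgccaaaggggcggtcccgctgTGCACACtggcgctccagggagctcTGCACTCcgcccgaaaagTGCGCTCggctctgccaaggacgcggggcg
Mt2 (chr8:94172368-94172667): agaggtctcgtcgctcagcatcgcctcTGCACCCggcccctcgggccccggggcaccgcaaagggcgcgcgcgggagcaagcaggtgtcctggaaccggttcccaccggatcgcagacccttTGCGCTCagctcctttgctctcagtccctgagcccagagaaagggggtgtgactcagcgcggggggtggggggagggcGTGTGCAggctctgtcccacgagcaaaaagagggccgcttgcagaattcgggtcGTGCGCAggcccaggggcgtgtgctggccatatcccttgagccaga
Slc30a1 (chr1:191906531-191906830): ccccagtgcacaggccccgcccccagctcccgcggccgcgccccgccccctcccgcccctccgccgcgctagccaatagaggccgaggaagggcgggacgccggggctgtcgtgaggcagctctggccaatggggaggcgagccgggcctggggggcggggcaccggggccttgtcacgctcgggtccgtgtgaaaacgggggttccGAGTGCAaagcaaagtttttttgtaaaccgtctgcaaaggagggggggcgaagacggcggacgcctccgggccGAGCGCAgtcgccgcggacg
The Mt1 window held 3 matches, all on the plus strand, and 1.99% of 32544 promoter windows of the same length held at least 3. The Mt2 window held 4, of which 2 lay on the plus and 2 on the minus strand, and 0.522% of windows held at least 4. The Slc30a1 window held 2 matches, both on the minus strand, and 7.17% of windows held at least 2. The Mtf1 window (chr4:124802299-124802598) held 0, where 25.9% of windows held at least 1. The motif is rich in G and C, and so were these windows, at 60.7% for Mt1, 67.7% for Mt2, 66.3% for Mtf1 and 73.0% for Slc30a1, against a median of 53.0% over all windows. A match describes letters and not a bound site, and a window set by an annotated start leaves the bases further away unread. The starts of Mt1 and Mt2 lie 6471 bases apart on chromosome 8.

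The T1D library kept 15579 of 15771 barcodes with a median of 2757 counts per cell, and the control library kept 12803 of 12880 with a median of 3633. The tables held 52022458 counts in T1D and 57494166 in control. The T1D library thus had more and shallower cells, and its lowest kept cell had 1369 counts against 1904 in control. Kept cells of the libraries shared 249 barcodes, 1.60% of the T1D cells and 1.94% of the control cells, where even draws from the 884736 combinations of the barcode segments would give 225. Cells were clustered without the metallothionein and zinc transporter genes, and clusters took the names of marker sets. The names carry the sense of "like", and the rule that gave them was set after the clusters had been seen. All named classes were haematopoietic except stromal or endothelial cells, 13 in T1D and 17 in control, and 900 T1D and 1424 control cells were left unnamed. In all, 15 classes had at least 50 cells in both libraries, and 10 with at least 100 in both were compared. Levels are given as CPM, a gene's summed counts scaled to the total of the class, and their 95% intervals cover counting error only. All levels are on the CPM scale of the gene named, and no level is compared between genes.

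Mt1 was the member with the clearest difference between the libraries. Over all kept cells it had 4855 counts in T1D (93.9 CPM) and 2431 in control (42.4 CPM). The ratio of T1D to control was 2.21 (2.11 to 2.33), a log2 ratio of 1.06 with 5 CPM added to both. A gene passed the size rule where this log2 ratio was at least 1 in size, the higher library had at least 50 CPM and the counting interval of the ratio excluded 1. Mt1 passed in the direction of T1D, as did 0.936% of the 2779 genes with enough CPM over all kept cells. In the other direction, 2.55% passed. Mt1 was found in 14.1% of T1D cells and 7.88% of control cells. After each cell was thinned to 1000 counts, which removes the gap in depth, the shares were 5.12% (4.78 to 5.48%) in T1D and 2.16% (1.91 to 2.42%) in control. With the control library's class shares applied to both libraries the log2 ratio was 1.09, at 99.8 CPM in T1D and 44.2 CPM in control. This setting left out pro- or pre-B cells, found in control alone, and took all unnamed cells as a single class. Differences in makeup within a class were not evened out.

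Across the 15 classes with at least 50 cells in both libraries, Mt1 was high in granulocyte-monocyte progenitors and red cell precursors. It was low in mature B cells, T or NK cells and late neutrophils. Granulocyte-monocyte progenitors, which carry Mpo and Elane, had the highest level in both libraries, at 298 CPM in T1D and 232 CPM in control. Erythroid cells came next, at 273 CPM in T1D and 206 CPM in control. Early progenitors, a class with stem and progenitor markers such as Cd34 and Kit, had 216 CPM in T1D and 112 CPM in control. This class also had an excess of 5 granulocyte-monocyte progenitor markers. The level of early progenitors depended on where the class was bounded, with 114 CPM in T1D and 25.5 CPM in control at resolution 2 of the clustering (log2 ratio 1.96), and 94.7 CPM in T1D and 26.5 CPM in control with the zinc genes let in (1.66). With cells gated one by one on marker counts it was 40.4 CPM in T1D and 10.3 CPM in control (1.57), and without the 5% deepest cells of each library, a setting chosen after seeing the data, it was 184 CPM in T1D and 59.9 CPM in control (1.54). In T1D the order of the first and second class was not clear of counting error, since granulocyte-monocyte progenitors spanned 281 to 315 CPM and erythroid cells 246 to 301 CPM. The control intervals also overlapped, at 215 to 250 CPM for granulocyte-monocyte progenitors and 189 to 225 CPM for erythroid cells. Monocytes came after these in T1D at 184 CPM, close to plasma cells at 176 CPM and macrophages at 162 CPM. In control, monocytes stood at 37.7 CPM, below these classes and also below the macrophage or dendritic cell class at 101.4 CPM, macrophages at 93.9 CPM, plasma cells at 49.4 CPM and megakaryocytes at 43.4 CPM. The lowest T1D class was intermediate neutrophils at 6.46 CPM, and in control it was again intermediate neutrophils, at 1.13 CPM, followed by mature B cells at 1.24 CPM. None of the other partitions, nor the gates, gave a class of intermediate neutrophils found in both libraries. Pro- or pre-B cells, found in the control library alone, had 14.7 CPM in 716 cells.

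**Figure D1:**
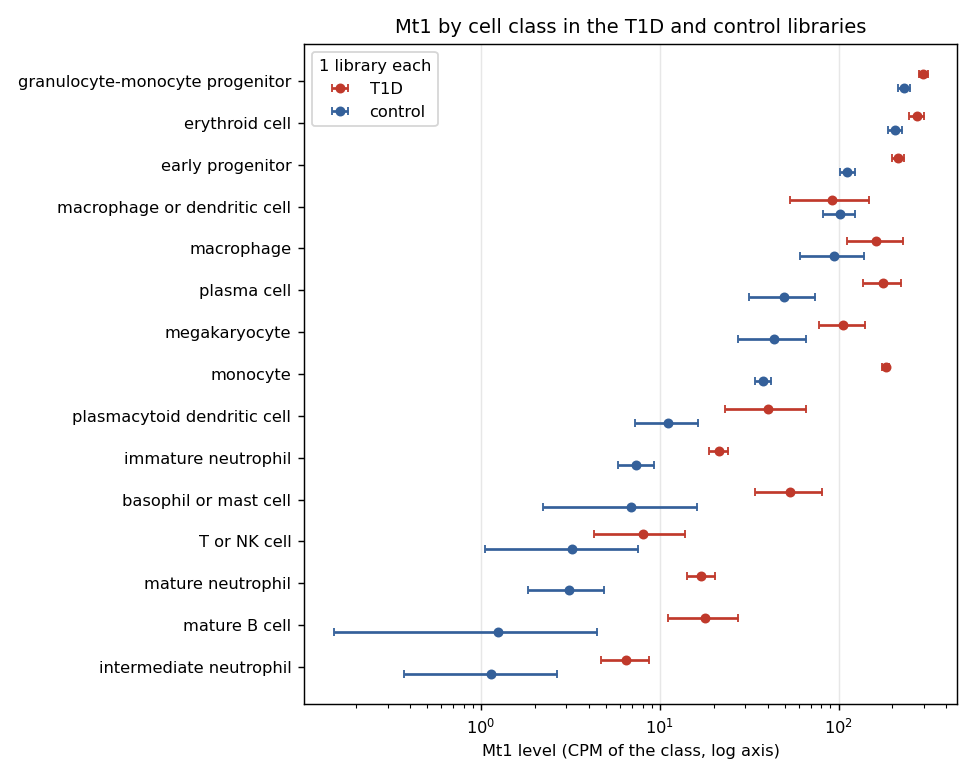
Mt1 level in CPM on a log axis for 15 cell classes, with T1D in red above control in blue and 1 library each. Points are the summed level of the class and bars its exact 95% Poisson interval. Granulocyte-monocyte progenitors and erythroid cells are highest in both libraries, and monocytes stand at 184 CPM in T1D and 37.7 CPM in control.

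Monocytes carried the largest share of the difference in Mt1. They had 1773 Mt1 counts among 2136 T1D cells and 380 counts among 1693 control cells. The level was 4.87-fold higher in T1D (4.36 to 5.46), a log2 ratio of 2.14, and Mt1 passed the size rule there, as did 2.14% of 3084 genes in that direction. Monocytes made up 13.7% of the kept cells in T1D and 13.2% in control, yet held 36.5% of all Mt1 counts in T1D and 15.6% in control. Of the difference of the all-cell level between the libraries, 53.7% lay in monocytes, 22.3% in granulocyte-monocyte progenitors and 9.70% in early progenitors. Each of these parts also contains the class's share of the library's counts. Granulocyte-monocyte progenitors made up 5.28% of T1D cells and 2.96% of control cells, and their Mt1 level was 1.28-fold higher in T1D (1.17 to 1.41).

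The difference in monocytes was seen in all 3 of their clusters. In the cluster of most monocytes, led by Saa3, Vcan and Fn1, Mt1 stood at 282 CPM in T1D and 42.3 CPM in control. A further cluster, led by Itga1, C1galt1c1 and F13a1, had 127 CPM in T1D and 35.1 CPM in control. The smallest, again led by Saa3 and Vcan, had 155 CPM in T1D and 32.0 CPM in control. The control clusters thus lay within 32.0 to 42.3 CPM, while the T1D clusters ranged from 127 to 282 CPM. Monocytes with none of 8 cell cycle genes had 267 CPM in T1D and 47.3 CPM in control, 5.64-fold higher in T1D (4.63 to 6.91). Those with at least 2 had 137 CPM in T1D and 34.6 CPM in control, 3.97-fold higher in T1D (3.40 to 4.64). Mt1 was found in 37.2% of T1D monocytes and 13.7% of control monocytes, at median depths of 4100 counts in T1D and 5238 in control. Thinned to 1000 counts, the shares were 15.1% (13.6 to 16.7%) in T1D and 3.72% (2.87 to 4.74%) in control. For comparison, T or NK cells, a class of low Mt1, had Mt1 in 2.12% of cells in T1D and 0.847% in control and, after thinning, in 0.979% in T1D and 0.424% in control. Their median depth was 2318 counts in T1D and 2854.5 in control. At least 6 Mt1 counts were found in 41 T1D monocytes and 5 control monocytes, and the highest cell had 14 counts in T1D and 10 in control.

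Of the 10 classes compared, Mt1 had a ratio above 1 in 10 and a counting interval above 1 in 9, with T or NK cells as the exception in the interval at 8.07 CPM in T1D and 3.23 CPM in control (ratio 2.50, 0.837 to 8.96). The share of all genes with an interval excluding 1 was not computed. Counts of such classes, for Mt1 and for the other members, are therefore descriptions alone. Outside the 10 classes compared, the macrophage or dendritic cell class had 91.8 CPM in T1D and 101.4 CPM in control (ratio 0.906, 0.506 to 1.53). Early progenitors were 1.93-fold higher in T1D (1.70 to 2.18), and their log2 ratio was 0.92. Early progenitors with at least 2 cell cycle genes, 391 cells in T1D and 343 in control, had 230 CPM in T1D and 123 CPM in control. Erythroid cells were 1.32-fold higher in T1D (1.16 to 1.51), but with cells gated one by one on marker counts the log2 ratio was -0.18 in place of 0.39. Without the 5% deepest cells of each library it was 0.067, at 165 CPM in T1D and 157 CPM in control. Immature neutrophils, which carry the granule genes Ngp and Ltf, had 21.3 CPM in T1D and 7.37 CPM in control. Intermediate neutrophils had 43 counts in T1D and 5 in control, and with free RNA subtracted at the level set by Jchain and Igha, 0.332 CPM remained in T1D and 0 in control (log2 ratio 0.093 in place of 0.90). Mature neutrophils had 17.0 CPM in T1D and 3.10 CPM in control (5.50-fold, 3.33 to 9.61), where a cluster led by Stfa2 held 2893 of the 3014 T1D cells and another, led by Clec4d, 1932 of the 2012 control cells. Mt1 passed the size rule in one class beside monocytes, basophils or mast cells, where 3.14% of 2959 genes passed in the same direction. That class had 23 counts in 136 T1D cells, or 53.6 CPM, and 5 counts in 155 control cells, or 6.87 CPM (ratio 7.80, 2.90 to 26.3). Mature B cells had 21 counts in T1D and 2 in control, a ratio of 14.5 (3.55 to 128), and 18 of the T1D counts came from 9 cells of a single cluster.

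Transcripts foreign to a class give a readout of free RNA, and they too differed between the libraries, in classes of low and of high Mt1. Their part in the Mt1 ratios was not tested. Hemoglobin transcripts, which white cells do not make, stood in mature neutrophils at 81.1% of their all-cell level in T1D and 58.2% in control. Jchain and Igha, genes of plasma cells, stood there at 7.08% in T1D and 4.0% in control. Mt1 stood in mature neutrophils at 18.1% of its all-cell level in T1D and 7.30% in control, between both readouts. In mature B cells hemoglobin had the opposite order, at 21.2% in T1D and 66.0% in control, while Mt1 stood at 19.2% in T1D and 2.92% in control. Basophils or mast cells had Jchain and Igha at 26.9% in T1D and 1.23% in control, while hemoglobin was lower in T1D than in control. The Mt1 level of that class with free RNA subtracted was not computed. Erythroid cells, a class of high Mt1, had Jchain and Igha at 37.6% in T1D and 1.21% in control. Subtraction at that level left 237 CPM of Mt1 in T1D and 206 CPM in control, a log2 ratio of 0.20 in place of 0.39. Monocytes had Mt1 at 195% of the all-cell level in T1D and 88.8% in control, while hemoglobin stood at 32.3% in T1D and 12.3% in control. When free RNA was subtracted at the level hemoglobin sets, the log2 ratio in monocytes was 2.08. With the same subtraction, immature neutrophils kept 0 CPM of Mt1 in T1D and 0.171 CPM in control, a log2 ratio of -0.048 in place of 1.09. In intermediate and mature neutrophils it left no Mt1 in either library, so no ratio is given there.

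**Figure D2:**
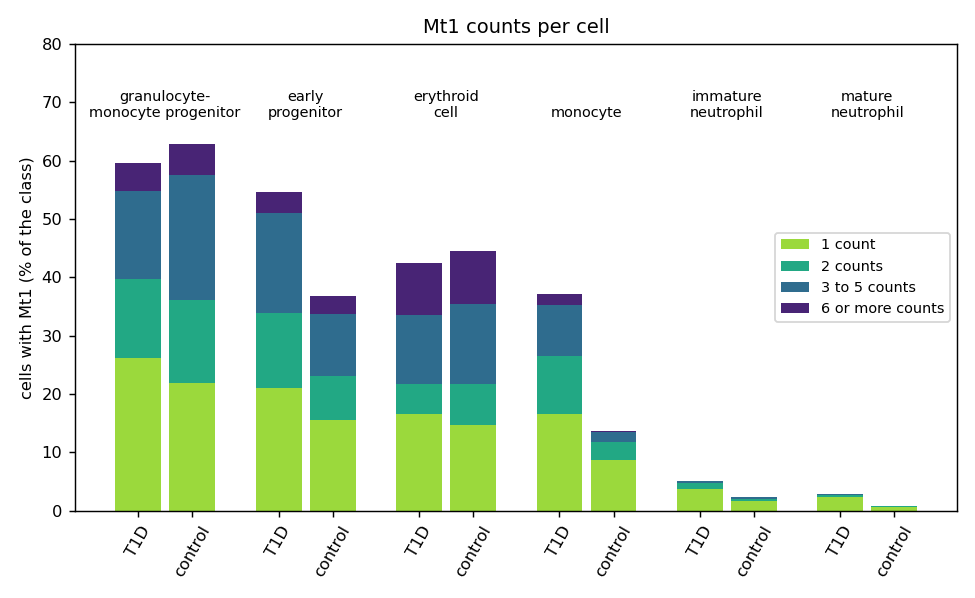
Percent of the cells of 6 classes with 1, 2, 3 to 5, and 6 or more Mt1 counts, as stacked bars with T1D left of control. Monocytes with Mt1 make up 37.2% in T1D and 13.7% in control, while in granulocyte-monocyte progenitors the shares are 59.6% in T1D and 62.8% in control, at median depths of 4384.5 counts per T1D cell and 6957 per control cell.

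Per cell, Mt1 was spread over many monocytes and granulocyte-monocyte progenitors. The 1% of cells with the most Mt1 held 10.7% of the Mt1 counts of T1D monocytes and 21.6% of those of control monocytes. In granulocyte-monocyte progenitors they held 8.17% in T1D and 7.13% in control. Mt1 was found in 59.6% of T1D and 62.8% of control granulocyte-monocyte progenitors, an order opposite to that of the CPM and taken at unequal depth, so none is read from it. At 1000 counts per cell the shares there were 21.0% (18.3 to 24.0%) in T1D and 16.4% (12.8 to 20.5%) in control. Plasma cells were an exception, since a single T1D cell held 25 of the 71 counts of its class, against 24 counts in all 69 control plasma cells.

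Mt2, the companion gene of Mt1 on chromosome 8, had most of its counts in erythroid cells in both libraries. Over all kept cells it had 214 counts in T1D (4.14 CPM) and 121 in control (2.11 CPM), a ratio of 1.96 (1.56 to 2.47). Erythroid cells made up 1.63% of T1D cells and 2.34% of control cells but held 65.4% of the Mt2 counts in T1D and 81.8% in control. They had 140 counts in 254 T1D cells and 99 counts in 299 control cells. The level was 96.9 CPM in T1D and 40.7 CPM in control, 2.38-fold higher in T1D (1.83 to 3.11), and Mt2 passed the size rule there, as did 1.31% of 3271 genes in that direction. Mt2 was found in 25.2% of T1D and 19.4% of control erythroid cells, and after thinning in 8.27% (5.19 to 12.4%) in T1D and 3.34% (1.62 to 6.06%) in control. With cells gated on marker counts the log2 ratio was 0.72 in place of 1.16, which is under the size rule. Among the classes with at least 50 cells in both libraries, plasma cells came next in level, with 7 counts in T1D (17.4 CPM) and 6 in control (12.3 CPM).

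Outside erythroid cells Mt2 was sparse. Monocytes had 30 counts in T1D and 1 in control, a ratio of 31.3 with an interval of 5.21 to 1279, and the T1D level was 3.11 CPM. Of the 22 T1D monocytes with Mt2, 86.4% also had Mt1. Early progenitors had 7 counts in T1D and 0 in control, with an interval of the ratio that begins at 1.85. Basophils or mast cells, mature B cells, megakaryocytes and plasmacytoid dendritic cells had 0 Mt2 counts in both libraries. The counting interval lay above 1 in 3 of the 10 classes, which were early progenitors, erythroid cells and monocytes.

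Most erythroid cells with Mt2 also had Mt1. Of the erythroid cells with Mt2, 81.3% also had Mt1 in T1D (52 of 64) and 89.7% in control (52 of 58). Of those with Mt1, 48.1% also had Mt2 in T1D and 39.1% in control. The ratio of Mt1 counts to Mt2 counts was 2.81 in T1D and 5.07 in control erythroid cells, against 59.1 in T1D monocytes. This ratio thus differed more between T1D erythroid cells and T1D monocytes than between the libraries within erythroid cells.

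**Figure D3:**
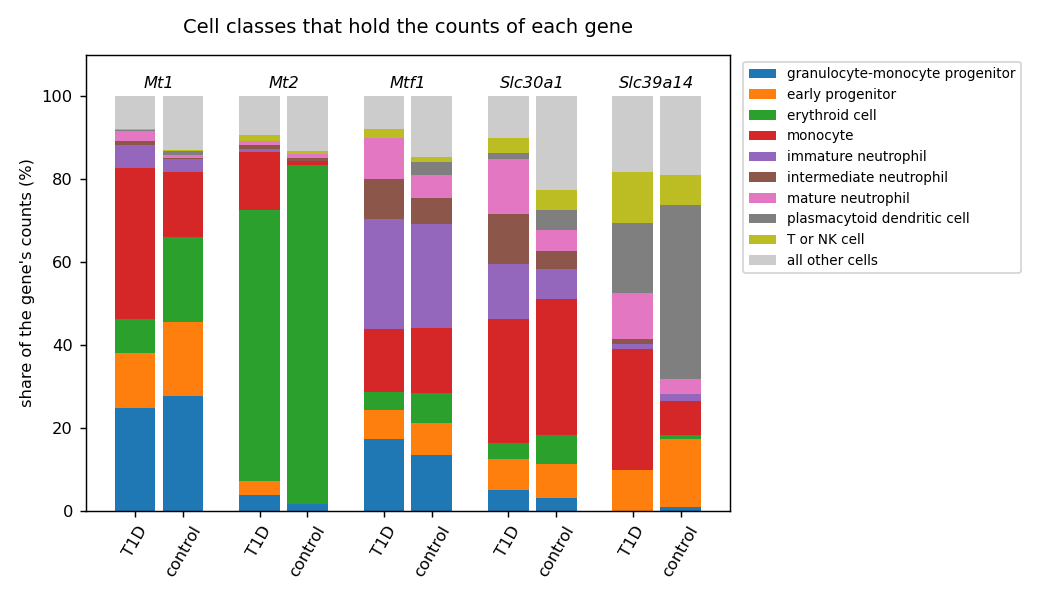
Share of each gene's counts held by 9 named cell classes and by all other cells, in percent, with T1D left of control for each of the 5 genes. Monocytes hold 36.5% of Mt1 counts in T1D and 15.6% in control, and erythroid cells hold 65.4% of Mt2 counts in T1D and 81.8% in control.

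Within the erythroid class, both metallothioneins were lower where the share of hemoglobin transcripts was higher. Erythroid cells of both libraries together were put into terciles by the share of hemoglobin genes in their counts, up to 0.243%, up to 2.96% and above. Mt1 stood in the lowest tercile at 557 CPM in T1D and 406 CPM in control. In the middle tercile it stood at 160 CPM in T1D and 121 CPM in control, and in the highest at 30.8 CPM in T1D and 23.9 CPM in control. Mt1 was thus lower with each step of hemoglobin in both libraries. The ratio of T1D to control was 1.37 (1.18 to 1.60) in the lowest tercile, 1.33 (0.970 to 1.80) in the middle one and 1.28 (0.560 to 2.97) in the highest.

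Mt2 had the same order, with 204 CPM in T1D and 86.5 CPM in control in the lowest tercile. The middle tercile had 48.6 CPM in T1D and 19.4 CPM in control, and the highest had 11.0 CPM in T1D and 1.84 CPM in control, from 5 counts in T1D and 1 in control. Its ratio of T1D to control was 2.36 (1.76 to 3.19) in the lowest and 2.50 (1.28 to 4.93) in the middle tercile. Kit, Slc4a1 and Klf1 mark the stage of the cells and were picked after their values were seen. Kit, the stem cell factor receptor of early precursors, had 261 CPM in T1D and 147 CPM in control in the lowest tercile, against 6.59 CPM in T1D and 7.37 CPM in control in the highest. Slc4a1, the anion exchanger of the red cell membrane, had 301 CPM in T1D and 348 CPM in control in the middle tercile, against 1678 CPM in T1D and 1328 CPM in control in the highest. The terciles held 83, 68 and 103 T1D cells and 101, 116 and 82 control cells from low to high, and Kit was higher and Klf1, an erythroid transcription factor, lower in T1D in the lowest tercile (Klf1 at 48.3 CPM in T1D and 94.1 CPM in control). Whether the cells of a tercile stand at the same stage in both libraries was not tested.

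**Figure D4:**
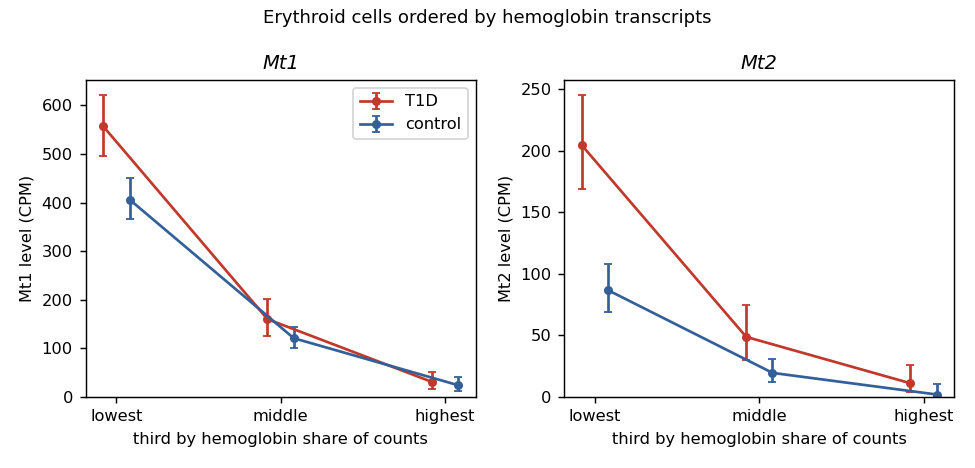
Mt1 (left) and Mt2 (right) levels in CPM in erythroid cells split into terciles by the hemoglobin share of their counts, T1D in red and control in blue, with exact 95% Poisson intervals. Mt1 is at 557 CPM in T1D and 406 CPM in control in the lowest tercile, and at 30.8 CPM in T1D and 23.9 CPM in control in the highest, and Mt2 at 204 CPM in T1D and 86.5 CPM in control in the lowest.

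Mtf1, the zinc sensor, did not share the excess of the metallothioneins. Over all kept cells it had 1373 counts in T1D (26.6 CPM) and 1656 in control (28.9 CPM). The ratio was 0.919 (0.855 to 0.988), and its log2 ratio of -0.10 turned to 0.0022 with TMM scaling and to 0.0074 with DESeq2 size factors. By class, granulocyte-monocyte progenitors had the highest level, at 58.5 CPM in T1D and 76.9 CPM in control. Erythroid cells followed at 42.2 CPM in T1D and 50.5 CPM in control. The third class was early progenitors in T1D, at 32.3 CPM, and immature neutrophils in control, at 40.5 CPM. Mtf1 was thus found at its highest in the classes that led for Mt1 in both libraries, but unlike Mt1 it was also frequent in immature neutrophils, which held 364 of its counts in T1D and 418 in control.

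Between the libraries, the counting interval of Mtf1 lay below 1 in 2 of 10 classes and above 1 in 0. In granulocyte-monocyte progenitors the ratio was 0.761 (0.631 to 0.918), and in immature neutrophils it was 0.711 (0.616 to 0.820). In monocytes, the class with the largest part of the Mt1 difference, Mtf1 had 21.6 CPM in T1D and 25.5 CPM in control (ratio 0.850, 0.704 to 1.02). No class passed the size rule for Mtf1, and only granulocyte-monocyte progenitors and erythroid cells reached the 50 CPM it needs.

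Slc30a1, the zinc exporter, was a low gene in every class. Over all kept cells it had 486 counts in T1D (9.40 CPM) and 480 in control (8.38 CPM), with a ratio of 1.12 (0.987 to 1.28). Macrophages, which carry C1qa and Vcam1, had the highest level at 39.4 CPM in T1D from 8 counts and 18.8 CPM in control from 5 counts. Monocytes held the most counts, 146 in T1D and 158 in control. Their level was 15.1 CPM in T1D and 15.7 CPM in control, a ratio of 0.965 with an interval of 0.766 to 1.22, so that a difference beyond 1.22-fold upward lies outside counting error. In the same cells Mt1 was 4.87-fold higher in T1D. The counting interval of Slc30a1 lay above 1 in intermediate neutrophils, at 8.87 CPM in T1D and 4.76 CPM in control, and in mature neutrophils, at 9.33 CPM in T1D and 4.13 CPM in control. When free RNA was subtracted at the level hemoglobin sets, the log2 ratio in intermediate neutrophils was -0.17 in place of 0.51.

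Slc39a14, the importer, had few counts in any class. There were 82 counts in all T1D cells (1.59 CPM) and 110 in all control cells (1.92 CPM). Plasmacytoid dendritic cells, the main source of type I interferon, had 14 counts in 93 T1D cells and 46 counts in 492 control cells. Their level was 35.4 CPM (19.3 to 59.3) in T1D and 19.7 CPM (14.5 to 26.3) in control, and the interval of the ratio, 0.909 to 3.32, included 1. The gene was found in 11.8% of these cells in T1D and 8.33% in control. T or NK cells had 6.21 CPM in T1D and 5.16 CPM in control. Early progenitors had 8 counts in T1D (2.66 CPM) and 18 in control (4.67 CPM), a ratio of 0.571 (0.215 to 1.38). Granulocyte-monocyte progenitors had 0 counts among 822 T1D cells and 1 count among 379 control cells, and erythroid cells had 0 in T1D and 1 in control. Monocytes had 24 counts in T1D (2.49 CPM) and 9 in control (0.892 CPM), a ratio of 2.79 (1.25 to 6.81).

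**Figure D5:**
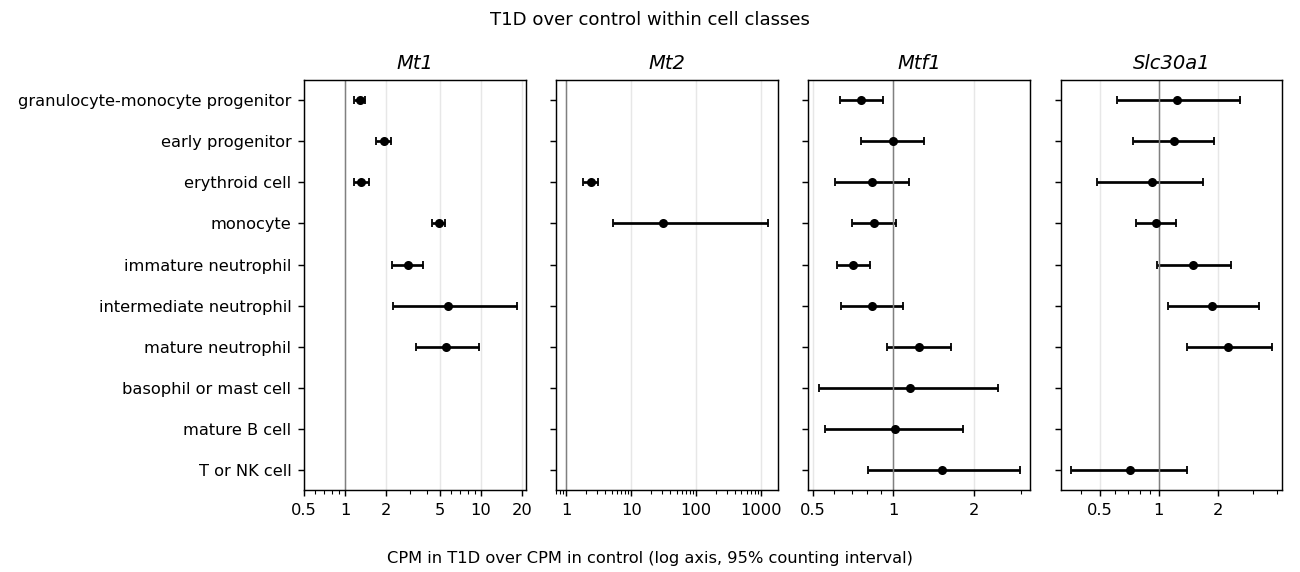
Ratio of the T1D to the control level for Mt1, Mt2, Mtf1 and Slc30a1 in the cell classes compared, on log axes with exact 95% counting intervals, shown where both libraries together had at least 30 counts. The Mt1 ratios shown lie above 1, with 4.87 in monocytes, while those of Mtf1 lie on both sides of 1 and the Slc30a1 ratio in monocytes is 0.965.

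Over the 10 classes, then, 2 passed for Mt1, 1 for Mt2 and 0 for Mtf1, Slc30a1 and Slc39a14, all in the direction of T1D. In the classes where no member passed, the share of tested genes that were higher in T1D by the rule was 1.30% in T or NK cells, 1.14% in early progenitors, 0.602% in granulocyte-monocyte progenitors, 0.858%, 2.01% and 2.21% in immature, intermediate and mature neutrophils, and 0.770% in mature B cells. Lower in T1D by the same rule, where no member passed in any class, were 2.69% of genes in T or NK cells, 3.99% in basophils or mast cells, 0.489% in early progenitors, 0.856% in erythroid cells and 0.542% in granulocyte-monocyte progenitors. The corresponding shares were 0.406%, 0.927% and 2.11% in immature, intermediate and mature neutrophils, 1.82% in mature B cells and 1.07% in monocytes. Slc30a1 and Slc39a14 in all 10 classes, Mt2 outside erythroid cells, and Mt1 in T or NK cells, mature B cells and the 3 neutrophil classes lay under 50 CPM in both libraries and so could not pass. Outside granulocyte-monocyte progenitors and erythroid cells, Mtf1 likewise lay under 50 CPM in both libraries and could not pass. In granulocyte-monocyte progenitors, early progenitors and erythroid cells Mt1 was above that level, and its log2 ratio was under 1.

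The lists of zinc exporters and importers, which include the members Slc30a1 and Slc39a14, held ratios on both sides of 1. Of 10 exporters of the ZnT family, 8 were in the tables and 5 had at least 5 CPM over all kept cells, with 1 ratio above 1, 4 below 1 and a median log2 ratio of -0.16. The exporter above 1 was Slc30a1 itself, so the 4 others lay below 1. Of 14 importers of the ZIP family, 13 were in the tables and 9 passed that filter, with 4 above 1, 5 below 1 and a median of -0.12. The median over all 8991 genes was -0.12. All exporters and importers lay under 50 CPM over all kept cells and so could not pass the size rule there. None passed in any class compared, where many of them also lay under that level. Slc30a9, the exporter of highest level, had 29.7 CPM in T1D and 30.2 CPM in control. Slc39a9, the importer of highest level, had 25.6 CPM in T1D and 24.4 CPM in control. Genes reported as further targets of MTF1 numbered 6, all measured, with 1 ratio above 1, 5 below 1 and a median of -0.32. The most abundant of these was Slc40a1, the iron exporter ferroportin, with 108 CPM in T1D and 78.0 CPM in control.

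In monocytes, the class with the Mt1 excess, 6 ZnT genes had 2 ratios above and 4 below 1 with a median of -0.10. Slc30a1 was among those below 1. Of 8 ZIP genes, 7 lay above 1 with a median of 0.11, and the 6 reported MTF1 targets had 2 above and 4 below 1 with a median of -0.34. Across all 8873 genes with at least 5 CPM in monocytes the median was -0.05. The third metallothionein in the tables, Mt3, had 3 counts in T1D and 4 in control, and Mt4 was not among the genes listed.

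The class of highest level is given for 5 further transporters, which were picked after their values were seen. Slc30a4, an exporter of the ZnT family, was highest in plasmacytoid dendritic cells at 93.4 CPM in T1D and 30.04 CPM in control, followed by the macrophage or dendritic cell class at 81.0 CPM in T1D and 11.99 CPM in control. Slc39a8, an importer of the ZIP family, was highest in erythroid cells, at 45.0 CPM in T1D and 76.0 CPM in control. Slc30a10, which in mammals exports manganese, was also highest there, with 10 counts in T1D and 37 in control. Slc39a11 was highest in granulocyte-monocyte progenitors at 43.7 CPM in T1D and 47.9 CPM in control, and Slc30a5 in early progenitors at 65.6 CPM in T1D and 72.6 CPM in control, followed by granulocyte-monocyte progenitors at 54.1 CPM in T1D and 59.0 CPM in control.

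Lists of other signals known to act on metallothionein genes were measured in the same way. Of 8 genes of the glucocorticoid response, all measured over all kept cells, 5 had a ratio above 1 and 3 below 1, with a median log2 ratio of 0.11. Fkbp5, a glucocorticoid-induced co-chaperone, was the member that passed the size rule there, at 81.9 CPM in T1D and 34.2 CPM in control. In monocytes it stood at 112 CPM in T1D and 37.8 CPM in control, and it also passed in T or NK cells, basophils or mast cells, intermediate and mature neutrophils and mature B cells. In granulocyte-monocyte progenitors it had 75.6 CPM in T1D and 73.1 CPM in control. Tsc22d3, a further glucocorticoid-induced gene, passed in basophils or mast cells alone, at 137 CPM in T1D and 66.0 CPM in control, and over all kept cells it had 104 CPM in T1D and 122 CPM in control. Dusp1, the most abundant of the list, had 299.9 CPM in T1D and 322 CPM in control.

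Of 10 genes of the oxidative stress response driven by NRF2, 8 were measured, with 2 ratios above 1, 6 below 1 and a median of -0.07. Gsr, the glutathione reductase gene, was the most abundant, at 1042 CPM in T1D and 560 CPM in control. It passed the size rule in monocytes, at 1240 CPM in T1D and 614 CPM in control, and in T or NK cells, at 465 CPM in T1D and 210 CPM in control. Of 9 copper handling genes, 7 were measured, with 3 above 1, 4 below 1 and a median of -0.06, and none passed. Sod1, the copper and zinc superoxide dismutase, was the most abundant of them, at 92.9 CPM in T1D and 91.0 CPM in control. The lists share control and T1D libraries with the members, and their part in the Mt1 difference was not tested.

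Genes whose levels followed those of a member across the 15 classes were found by Pearson's r of log2 levels, computed in each library and ranked by the lower value among 8152 genes. The classes share their library and depth, so r is given as a description. For Mt1 the 5 nearest genes were Uqcr11 (0.86), Polr2l, Sdhc, Nars and Uqcrq (0.84), of which Uqcr11 and Uqcrq encode subunits of respiratory complex III and Sdhc a subunit of complex II. For Mt2 they were Ank1 (0.83), the ankyrin of the red cell membrane, Tspan8, Sphk1, Dmtn, a membrane skeleton protein of red cells, and Igsf3 (0.81). For Mtf1 they were Mbnl3 (0.79), Svip, Baz1a, Ubl5 and Vps52 (0.70). For Slc30a1 they were Plekhb2 (0.79), Epn1, Slc35f6, Dse and Cyhr1 (0.74). For Slc39a14 they were Slc30a4 (0.83), Cd300c, Mycl, Ctnnd2 and Epha2 (0.79). Between Mt1 and Mt2 the r was 0.57 in T1D and 0.53 in control, and between Mt1 and Mtf1 it was 0.37 in T1D and 0.32 in control.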

How the data were processed

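Single cells of 1 T1D and 1 control library were analysed, with groups taken from the labels' disease state. The deposited values are raw, whole counts of each gene in each barcode, which the authors did not normalize. Per the submitters' processing notes, reads went through bcl2fastq 2.19 and featureCounts on mouse build mm9. Not given in the sources used here are the aligner, the annotation, the cell calling and whether molecular identifiers were collapsed, so values are called counts. If duplicates were kept, counting intervals are too narrow. No coordinate comes from the authors' build, and the RefSeq table on GRCm38.p6 served for the promoter windows alone.

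The 5 members and all gene lists were chosen with earlier results of these data known. Of 59 genes in 7 lists, 55 were in the tables and 4 in neither. Genes named were the members, the genes of the lists that passed the size rule, the most abundant gene of each list, and for each member the 5 genes of most similar pattern among those with at least 20 CPM in 1 class of each library. Any other gene is said to be chosen after its values were seen.

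Barcodes with at least 200 genes and at most 20% mitochondrial counts were kept. Scrublet in scanpy 1.11.5 marked 2 T1D cells and 1 control cell, under the 0.5% below which it counts as not having worked, so no doublet was taken out. Clustering used 2995 variable genes, without hemoglobin, mitochondrial, sex-linked, antigen receptor, metallothionein or zinc transporter genes, then 30 principal components, 15 neighbours and Leiden in igraph 0.11.9 at resolution 1. The best of 10 starts by modularity gave 32 clusters, and its mean adjusted Rand index with the other starts was 0.711. A cluster was named where at least 3 markers of a class had a 2-fold excess and 50 CPM and no unrelated class came near, a rule set after the clusters were seen. Unnamed clusters held 900 T1D and 1424 control cells.

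Counts were summed per library and class. Ratios have exact conditional binomial, levels exact Poisson and shares exact Clopper-Pearson intervals at 95%. The size rule was checked on simulated data. Alternatives used edgeR 4.0.16 (TMM) and DESeq2 1.42.0 for scaling alone, other cell filters, partitions, gates, totals and subtraction of free RNA.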

Additional observations from a re-analysis of the deposited data

How the results depend on the processing

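Of the values over all kept cells recomputed under the alternatives, 41 stayed within their counting interval and 7 moved out of it. A further 2, whose interval had excluded a ratio of 1, changed sign. Within classes these numbers were 270, 16 and 3. Changes of sign where the interval included 1 are counted among the others. Examples are Slc39a14 over all kept cells, from -0.071 to as high as 0.22, and Slc30a1 in early progenitors, from 0.17 to as low as -0.87. Within classes, a subtraction that left nothing in either library was not counted, as for Mt1 in intermediate and mature neutrophils at the hemoglobin level. The other partitions and the gates gave no intermediate neutrophil class found in both libraries, so they are not counted for it. The log2 ratio of Mt1 over all kept cells, 1.06 as reported, was 1.18 with DESeq2 size factors and with TMM, 1.18 with both libraries held to the lowest control total, 1.16 without ribosomal RNA in the totals, 1.27 as a mean over cells and 1.29 without the 5% deepest cells of each library, a setting chosen after seeing the data. Before 5 CPM is added, TMM scaling shifts the log2 ratio of every gene by 0.12 and DESeq2 scaling by 0.13. Mt2 over all kept cells was at 0.72 with 1 CPM added in place of 0.36. Mtf1 over all kept cells was at 0.0022 with TMM and 0.0074 with DESeq2 in place of -0.10. The share of monocytes with Mt1 was 15.1% in T1D and 3.72% in control at 1000 counts per cell, in place of 37.2% in T1D and 13.7% in control. With no minimum CPM, Mt1 passed the size rule in 5 classes in place of 2. In erythroid cells the Mt1 log2 ratio was -0.18 with gates, in immature neutrophils it was -0.048 with hemoglobin-level subtraction, and Slc30a1 in intermediate neutrophils was -0.17 with that subtraction. Immature neutrophils then kept 0 CPM of Mt1 in T1D and 0.171 CPM in control. Mt1 in intermediate neutrophils was at 0.093 with subtraction at the plasma cell level, in place of 0.90, and in erythroid cells at 0.067 without the 5% deepest cells. The cause of these changes was not tested. In monocytes the Mt1 log2 ratio lay between 2.04 and 2.21 over all 11 alternatives, including the leaving out of cells whose barcode was in both libraries, which was also chosen after seeing the data. Depth limits Slc39a14 and, outside erythroid cells, Mt2. No paired analysis was possible because each group has 1 library.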

Other observations

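Mt1 counts were unevenly spread over the cells. Over all kept cells, the 1% with the most Mt1 held 24.2% of its counts in T1D and 37.6% in control, and at least 6 counts were found in 127 T1D cells and 74 control cells. Stromal or endothelial cells, too few to compare, had 3 Mt1 counts in 13 T1D cells (75.7 CPM) and 16 counts in 17 control cells (220.0 CPM), and 2 Mt2 counts in T1D (50.5 CPM) and 4 in control (55.0 CPM). Of the pro- or pre-B cells of the control library, a cluster of 214 cells had Mt1 at 30.4 CPM and a cluster of 502 cells at 6.65 CPM. Among immature neutrophils Mt1 differed between clusters within a library, at 47.2 CPM in T1D and 22.1 CPM in control in the highest cluster, against 8.12 CPM in T1D and 3.54 CPM in control in the lowest.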
